A study of Mus musculus with 14 samples.

Results

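Cd24a, Gal, Calb2, Fam84a, Zfp385b, Adamts18 and Vxn are 7 of the 15119 genes measured in green fluorescent precursor cells of the adult mouse dentate gyrus. They were picked from these same measurements, because they were high in the class with the weakest signal for reactive oxygen species (ROS) and low in the classes with stronger signal. Their levels across the classes are therefore described and not tested. The label under which they were grouped, neuroblast genes lost at the first ROS step, described the course of Gal, Fam84a, Zfp385b and Adamts18. Cd24a and Calb2 fell at that step, to 2.53 and 6.84% of their means in the weakest class, and their means fell again at the next. Vxn went against the label, since its level was kept from the weakest to the middle class and was lost only in the strongest one.

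Every library came from B6.Cg-Tg(Nes-EGFP)1Yamm mice, 14 libraries in all. In that strain regulatory elements of Nestin drive enhanced green fluorescent protein (GFP), so every class shares the transgene and the GFP-positive gate. Nestin is an intermediate filament of neural stem and progenitor cells, and some vascular cells make it too. Dissociated cells were gated for GFP and split by the red signal of dihydroethidium, which fluoresces once oxidised, into GFP+ROS+ (5 libraries), GFP+ROS++ (5 libraries) and GFP+ROS+++ (4 libraries), written ROS+, ROS++ and ROS+++ from here on. The labels give adult cells with no treatment and name no animal, age in weeks, sex, batch or pairing, so the spread between libraries may be technical. Depth over the listed genes ran from 20832009 to 25313902 reads per library for ROS+, from 18325361 to 23454022 for ROS++, and from 12704227 to 20998589 for ROS+++. Nes ranged over 11.2 to 23.0, 77.6 to 127 and 137 to 321 CPM (reads scaled to a library total of 1000000) in the 3 classes, Sox2 over 21.0 to 33.0, 29.8 to 81.4 and 5.06 to 23.9, and the neuroblast gene Dcx over 372 to 530, 42.1 to 102 and 0.196 to 8.19. All classes are labelled Nestin-positive precursor cells, and ROS+++ held the most Nes, little Dcx and Sox2 at or below the range of ROS+.

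In the adult dentate gyrus, radial glia-like stem cells give rise to dividing intermediate progenitors, which become neuroblasts and then granule neurons. Each stage is known by its own transcripts. The surface glycoprotein CD24 and the calcium buffer calretinin (Calb2) are textbook markers of the immature neuronal stage, which in the mouse dentate gyrus comes after the last divisions and before calbindin appears. Both proteins also occur elsewhere, CD24 on ependymal and blood cells, and calretinin in interneurons, Cajal-Retzius cells and mossy cells. Galanin (Gal) is a neuropeptide cut from a secreted precursor and read by G protein-coupled receptors. Fam84a, also named Lratd1, encodes a protein with a domain like that of lecithin retinol acyltransferase. Zfp385b encodes a zinc finger protein, Adamts18 a secreted metalloprotease of the extracellular matrix, and Vxn encodes vexin, a protein that promotes neuronal differentiation.

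The stretches just before the transcription starts of Gal, Fam84a and Adamts18 are shown because these genes fell together at the first step. They come from RefSeq on build GRCm38.p6, all on the minus strand and read 5′ to 3′, and they end just before the RefSeq transcription start. The Fam84a stretch was cut to 234 bases, since the bases next to that start lie inside the gene as GENCODE draws it. Capitals mark matches, on either strand, to any of 6 short motifs. These were the NeuroD E-box, spelled CAGATG, the SOX factor site, spelled ACAAAG, the core of the cyclic AMP response element, spelled TGACGT, the GC box, spelled GGGCGG, the TATA box, spelled TATAAA, and the CCAAT box.

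Gal, chr19:3414545-3414794: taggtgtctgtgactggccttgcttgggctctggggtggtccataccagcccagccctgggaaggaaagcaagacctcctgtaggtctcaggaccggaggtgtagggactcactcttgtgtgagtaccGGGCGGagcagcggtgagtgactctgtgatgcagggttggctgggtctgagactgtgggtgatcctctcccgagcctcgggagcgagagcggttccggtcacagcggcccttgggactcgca
Fam84a, chr12:14152055-14152288: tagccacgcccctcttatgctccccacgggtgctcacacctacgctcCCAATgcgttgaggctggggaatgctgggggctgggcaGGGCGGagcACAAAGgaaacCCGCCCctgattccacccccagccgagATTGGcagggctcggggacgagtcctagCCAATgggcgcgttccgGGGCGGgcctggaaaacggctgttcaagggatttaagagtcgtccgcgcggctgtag
Adamts18, chr8:113848840-113849089: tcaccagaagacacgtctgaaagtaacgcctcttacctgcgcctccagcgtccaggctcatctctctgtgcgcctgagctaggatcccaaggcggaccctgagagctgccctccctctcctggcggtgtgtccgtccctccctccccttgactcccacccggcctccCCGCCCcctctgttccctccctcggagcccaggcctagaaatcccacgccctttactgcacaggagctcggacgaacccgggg

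The promoter table held 7 windows for 4 of the 7 genes, 4 of them for separate starts of Zfp385b; Cd24a, Calb2 and Vxn were not matched. Over the full 250 bases before each RefSeq start, the GC box was found in 4 of the 7 windows, at least 1 in each of the 4 genes, and in 32.7% of all 32851 windows of the table. The SOX site was found in 3 of the 7 windows (Fam84a and 2 of Zfp385b) and in 16.5% of all, and the CCAAT box in 1 (Fam84a) and in 33.8%. The NeuroD, cyclic AMP and TATA motifs were in none of the 7, against 14.4%, 6.47% and 12.4% of all windows. No 2 matches overlapped. These are letter matches in short windows, which describe the sequence and no binding.

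**Figure D1:**
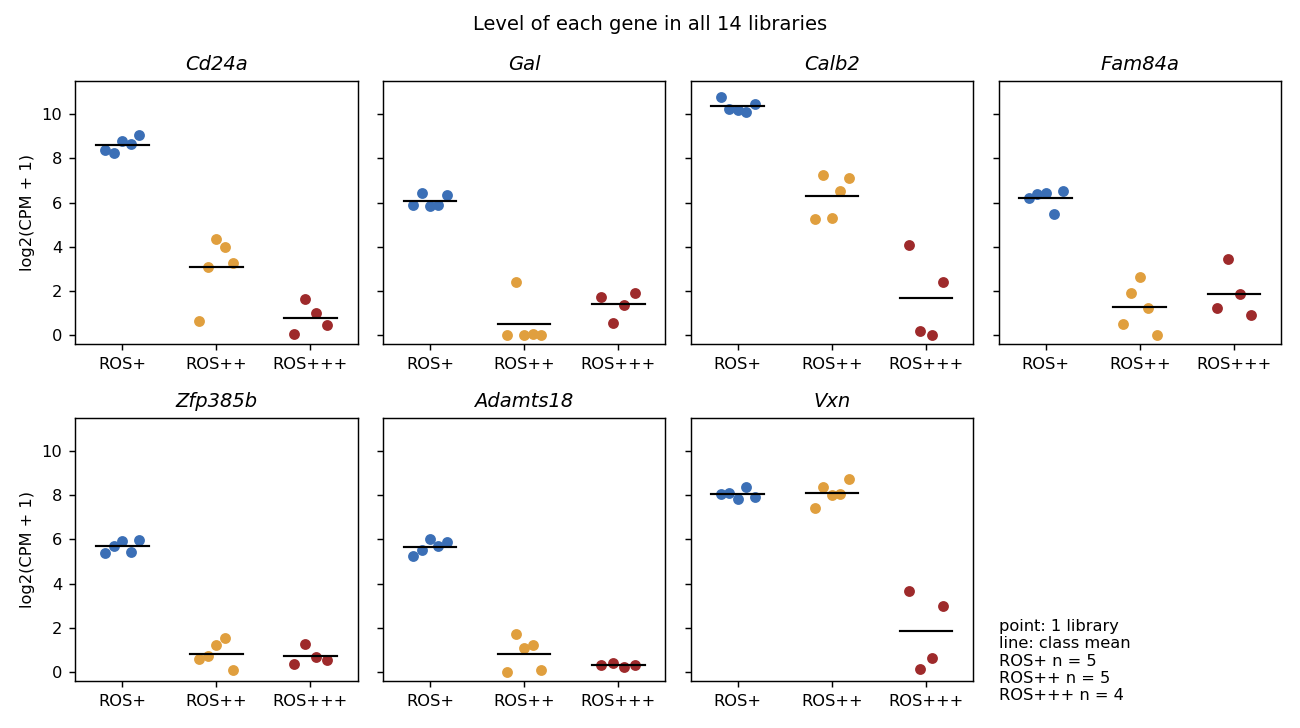
Level of each of the 7 genes on the log2(CPM + 1) scale (vertical axis) in every library by ROS class (horizontal axis), 1 point per library, with a line at the class mean. In 6 genes all ROS++ points lie below all ROS+ points, and in Vxn they overlap, with all 4 ROS+++ points below.

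Cd24a (chromosome 10, 43578284 to 43584265, plus strand, build GRCm38, ENSMUSG00000047139) encodes a small lipid-anchored surface glycoprotein. Its ROS+ libraries stood at 336, 304, 444, 402 and 533 CPM, its ROS++ libraries at 0.576, 7.51, 19.4, 14.9 and 8.68 CPM, and its ROS+++ libraries at 0.0477, 2.16, 1.00 and 0.394 CPM. Every ROS++ library was below every ROS+ library, and ROS++ replicate 1 lay within the range of ROS+++. The class means were 404 ± 90.6, 10.2 ± 7.22 and 0.900 ± 0.927 CPM (SD, n = 5, 5 and 4). ROS++ thus kept 2.53% of the ROS+ mean and ROS+++ 0.223%. Without ROS+++ replicate 2, the ROS+++ mean was 0.480 CPM. Changes are given as differences of class means on the log2(CPM + 1) scale with the standard error (SE) of the linear model. That scale understates the change of genes near 0. The difference was -5.56 ± 0.51 from ROS+ to ROS++ and -2.27 ± 0.54 from ROS++ to ROS+++. Transcripts of 2 processed pseudogenes match parts of Cd24a, Gm6212 at 96.8% identity over 218 bases and Gm15352 at 92.3% over 259 bases, so some reads may be uncertain.

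Gal (chromosome 19, 3409915 to 3414544, minus strand, ENSMUSG00000024907) had the largest fall of all 15102 tested genes at the first step on the log2(CPM + 1) scale. Cd24a ranked 2 at -5.56 ± 0.51, a gap to Gal smaller than either SE. Both genes were picked on this contrast, so their order is not read as a result. The ROS+ libraries held 58.2, 86.6, 56.7, 59.3 and 80.2 CPM. In ROS++ the values were 0, 4.40, 0, 0.0511 and 0 CPM, so that 82 of the 83 Gal reads of the class came from replicate 2. Without that library the ROS++ mean fell from 0.890 to 0.0128 CPM. A count of 0 allows up to 3 reads, which is 0.119 to 0.236 CPM depending on the library and covers counting error only, and 4 of the 5 ROS++ libraries were at or under that floor. All 4 ROS+++ libraries were above it, with 2.34, 0.491, 1.62 and 2.75 CPM from 10 to 49 reads each. Class means were 68.2 ± 14.1, 0.890 ± 1.96 and 1.80 ± 0.991 CPM, and the differences were -5.59 ± 0.45 at the first step and 0.90 ± 0.48 at the second. Gal was therefore not lower in ROS+++ than in ROS++, and the ranges of both classes overlapped only through ROS++ replicate 2.

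Calb2 (chromosome 8, 110137502 to 110168210, minus strand, ENSMUSG00000003657), the calretinin gene, was the most abundant of the 7 and ranked 54 of 15119 genes by mean CPM in ROS+. Its ROS+ libraries held 1733, 1199, 1168, 1115 and 1424 CPM. The ROS++ libraries kept 37.4, 151, 38.4, 91.4 and 136 CPM, still between 2.82 and 11.4% of the ROS+ mean. ROS+++ libraries spread from 0 to 16.0 CPM, at 16.0, 0.147, 0 and 4.33. No 2 classes overlapped, and the order of the means was 1328 ± 255, 90.8 ± 53.0 and 5.13 ± 7.54 CPM. Leaving out ROS+++ replicate 1 took the last mean to 1.49 CPM. The differences were -4.07 ± 0.70 and -4.61 ± 0.74, and the first ranked 16 among all falls at that step.

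Fam84a (chromosome 12, 14146830 to 14152054, minus strand, ENSMUSG00000020607) stood at 73.0, 82.4, 85.8, 43.8 and 90.9 CPM in ROS+. ROS++ libraries held 0.419, 2.79, 5.20, 1.38 and 0 CPM, and ROS+++ libraries 1.38, 10.1, 2.67 and 0.866 CPM. The 2 higher classes overlapped each other and neither reached ROS+. Means were 75.2 ± 18.7, 1.96 ± 2.11 and 3.74 ± 4.28 CPM. They rested on single libraries, since without ROS++ replicate 3 the ROS++ mean was 1.15 CPM and without ROS+++ replicate 2 the ROS+++ mean was 1.64 CPM. The differences were -4.95 ± 0.51 and 0.61 ± 0.55.

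Zfp385b (chromosome 2, 77410634 to 77819639, minus strand, ENSMUSG00000027016) held 40.6, 51.3, 59.6, 42.6 and 61.0 CPM in ROS+. It held 0.524, 0.644, 1.32, 1.89 and 0.0546 CPM in ROS++, and 0.286, 1.37, 0.619 and 0.472 CPM in ROS+++. Both higher classes overlapped fully, at means of 0.887 ± 0.721 and 0.688 ± 0.477 CPM against 51.0 ± 9.40 in ROS+. The first difference was -4.85 ± 0.34 and the second -0.11 ± 0.36, smaller than its SE. A processed pseudogene transcript, Gm44059, matches 351 bases of Zfp385b at 96.0% identity. The antisense gene Gm13944 lies within the locus and shares no exon base with Zfp385b.

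Adamts18 (chromosome 8, 113697126 to 113848738, minus strand, ENSMUSG00000053399) held 36.9, 44.5, 62.8, 50.9 and 58.4 CPM in ROS+. ROS++ libraries held 0, 2.31, 1.15, 1.33 and 0.0546 CPM, and ROS+++ libraries 0.239, 0.344, 0.190 and 0.236 CPM, from 19 reads in all. ROS+++ lay close to the 3-read floor in each library, while ROS++ held both libraries at the floor and libraries above 1 CPM. Means were 50.7 ± 10.4, 0.968 ± 0.966 and 0.252 ± 0.0648 CPM, and the ROS++ mean was 0.634 CPM without replicate 2. The differences were -4.84 ± 0.36 and -0.50 ± 0.39.

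Vxn (chromosome 1, 9601199 to 9627143, plus strand, ENSMUSG00000067879) stood at 266, 272, 228, 328 and 238 CPM in ROS+ and at 171, 331, 256, 262 and 419 CPM in ROS++. The lowest and the highest of these 10 libraries were both in ROS++. ROS+++ libraries held 11.6, 0.0982, 0.571 and 6.93 CPM, all far below both other classes. Means were 266 ± 39.2, 288 ± 92.8 and 4.81 ± 5.52 CPM, the last falling to 2.53 CPM without ROS+++ replicate 1. The first-step difference was 0.06 ± 0.55, ranked 8384 of 15102 genes from the largest fall, and the second-step difference was -6.25 ± 0.58, the second largest fall of all genes. The non-coding gene 2610203C22Rik runs across Vxn on the other strand and shares 452 exon bases with it, and the protocol keeps no strand. That gene averaged 2.96 ± 1.44, 4.74 ± 2.55 and 7.23 ± 4.55 CPM in the 3 classes, so reads of the 2 genes cannot be told apart where they overlap.

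**Figure D2:**
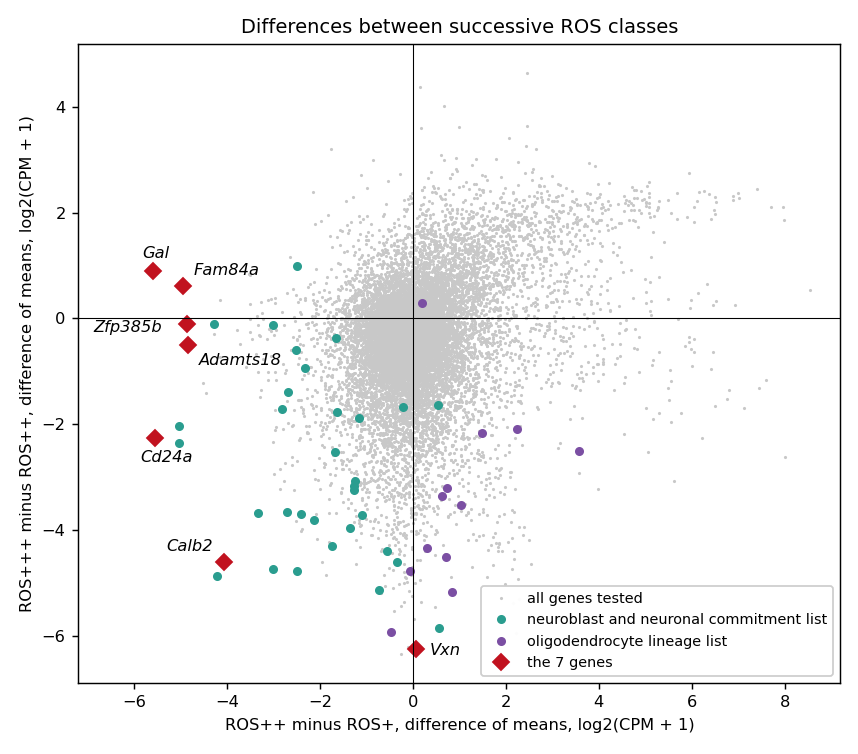
Difference of class means on the log2(CPM + 1) scale between ROS++ and ROS+ (horizontal axis) and between ROS+++ and ROS++ (vertical axis), 1 point per tested gene, with the 7 genes and 2 marker lists coloured. Gal, Fam84a, Zfp385b and Adamts18 sit at the left near 0 on the vertical axis, Cd24a and Calb2 at the lower left, and Vxn at 0.06 and -6.25.

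Counted over the 7 genes, 6 had no overlap between ROS++ and ROS+ in the lower direction, where 10.9% of all tested genes did. All 7 had none between ROS+++ and ROS+ (33.2% of all genes). Only Calb2 and Vxn had none between ROS+++ and ROS++ (19.5% of all genes). The first 2 counts restate how the genes were picked, and nothing is read from them. The median difference over the 7 was -4.85 at the first step and -0.50 at the second, beside -0.03 and -0.34 over all genes. With median-ratio size factors in place of library totals, the median of all genes was -0.01 and 0.03.

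The members differed most in their values at the second step. Gal, Fam84a, Zfp385b and Adamts18 overlapped between ROS++ and ROS+++, at 202, 191, 77.6 and 26.0% of the ROS++ mean CPM. They were near 0 in both classes, where the log2(CPM + 1) scale understates changes, and in limma-voom the second-step difference was 4.12 for Gal and 1.69 for Fam84a. Cd24a and Calb2 went down again, to 8.82 and 5.65%. Vxn went down only there, to 1.67%. Because the genes were chosen on these libraries, the contrasts between patterns are descriptive.

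Within a class the genes did not follow 1 order of libraries. ROS++ replicate 5 held the highest Vxn (419 CPM) and the second highest Calb2 (136 CPM), and it also held the lowest Fam84a, Zfp385b and, but for replicate 1, Adamts18. ROS++ replicate 3 held the highest Cd24a and Fam84a but no Gal read. ROS++ replicate 1 was the lowest for Cd24a, Calb2 and Vxn. In ROS+++, replicates 1 and 4 were the highest for Calb2, Vxn and Gal, and replicates 2 and 3 for Cd24a, Fam84a and Zfp385b. Library numbers in the sample titles run in sets, in which ROS++ replicates 2 to 5 stand next to ROS+++ replicates 1 to 4 in that order. Calb2 and Vxn were highest in ROS++ replicates 2 and 5 and in their neighbours ROS+++ replicates 1 and 4, and Cd24a and Fam84a in ROS++ replicate 3 and its neighbour ROS+++ replicate 2. The labels do not say what a set is, and its part in these values was not tested for single genes. In ROS+ the 7 genes were even, with coefficients of variation of 14.7 to 24.9%, while in ROS++ the 6 that fell ranged from 58.4 to 220%.

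**Figure D3:**
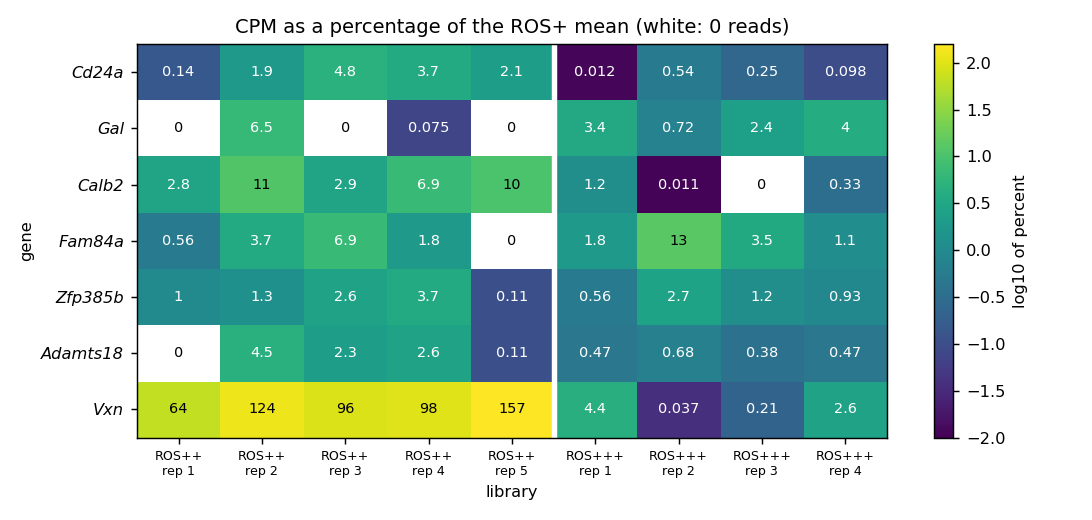
CPM of each gene (rows) in each ROS++ and ROS+++ library (columns) as a percentage of its ROS+ mean, with the value written in the cell and the colour on a log10 scale, white for 0 reads. Vxn runs from 64.3 to 157% across ROS++, and no other gene exceeds 11.4% there.

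Between genes, levels were compared per kilobase of annotated exon. In ROS+ Calb2 stood at 762 ± 146 CPM per kilobase, followed by Cd24a at 156 ± 35.1, Gal at 86.6 ± 17.9, Vxn at 81.8 ± 12.0, Fam84a at 17.5 ± 4.34, Zfp385b at 6.21 ± 1.14 and Adamts18 at 4.98 ± 1.02 (SD, n = 5). Gal and Vxn did not differ beyond their spread. The ranges of Zfp385b and Adamts18 overlapped, but Zfp385b was the higher in every ROS+ library. The gap was narrowest in replicate 4, at 5.18 against 5.01, and widest in replicate 2, at 6.24 against 4.38. In ROS++ Vxn led at 88.4 ± 28.5 CPM per kilobase and Calb2 followed at 52.1 ± 30.4. In ROS+++ Calb2 (2.94 ± 4.33), Gal (2.29 ± 1.26) and Vxn (1.48 ± 1.70) were within their spread. Gal, ranked 582 by level per kilobase in ROS+, is a short transcript of 788 exon bases, and Adamts18, ranked 7103, has 10178.

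The wider neuroblast and neuronal commitment programme, from a list of 32 genes without the 7, fell at both steps. At the first step, limma's moderated test (Benjamini-Hochberg adjusted p under 0.05 over all tested genes) called 24 of 32 lower, with 0 called higher (1 in limma-voom or without ROS++ replicate 1), a median of -1.94, and 13.2% of all genes called lower and 16.4% higher. The 8 that did not pass included Eomes and Neurog2, genes of dividing intermediate progenitors, at 0.57 and 0.54 (adjusted p = 0.10 and 0.542 in limma). These 2 were picked after their values were seen, and Neurog2 ran from 0.218 to 19.1 CPM over the ROS++ libraries. The rest of the 8 had negative differences. They were Stmn4, Stmn3, Gap43, Neurod4, Elavl4 and Marcksl1, at -1.28, -1.09, -0.73, -0.55, -0.34 and -0.22. The largest falls were in the microtubule regulator gene Stmn2, by 5.03 ± 0.73 (limma adjusted p = 0.000146), and the bHLH factor genes Neurod6, by 5.03 ± 0.50 (5.35e-07), and Neurod2, by 4.29 ± 0.31 (1.59e-08). Neurod2 averaged 26.8 ± 6.64, 0.408 ± 0.273 and 0.326 ± 0.376 CPM, a course like those of Zfp385b and Adamts18. At the second step 24 of the 32 were called lower and 1 higher, Bhlhe22, named after its value was seen and not called in limma-voom, with sets of library numbers as a block, or without ROS+ replicate 2, 3, 4 or 5, ROS++ replicate 4 or 5, or ROS+++ replicate 2, 3 or 4 (median -3.12, against 29.2% lower and 9.89% higher of all genes). Of mature granule and pyramidal neuron genes, 10 of 14 were lower at the first step and 0 higher (median -1.48).

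Galanin's receptor Galr1 fell with its ligand. It averaged 11.6 ± 5.53 CPM in ROS+, 0.154 ± 0.0874 in ROS++ and 0.217 ± 0.287 in ROS+++ (SD, n = 5, 5 and 4), a first-step change of -3.35 ± 0.33 (limma adjusted p = 4.61e-07), called under all 21 alternatives. Among the 8 galanin receptor and neuropeptide genes tested, 3 were lower and 1 higher at the first step (2 higher without ROS+ replicate 1 or ROS++ replicate 4, or with sets of library numbers as a block). The tachykinin gene Tac2 fell by 2.86 ± 0.41 (limma adjusted p = 4.16e-05) and the neurotensin gene Nts rose by 4.74 ± 0.47 (6.37e-07), to 43.4 ± 29.7 CPM in ROS++ and 139 ± 38.7 in ROS+++. Genes of dense-core vesicles and peptide processing, which package and cut such peptides, were mostly not called at the first step, with 3 of 16 lower and 1 higher (1 lower on the values as deposited, 5 lower in limma-voom and 5 without ROS+++ replicate 3; 2 higher without ROS+++ replicate 4). Over all genes 13.2% were lower, 16.4% higher and 10626 of 15102 not called. Nothing about either list is read from its first-step counts. The prohormone convertase gene Pcsk1 fell by 1.74 ± 0.37, and the granin genes Scg2 and Chgb by 1.84 ± 0.50 and 1.68 ± 0.53 (limma adjusted p = 0.00156, 0.00908 and 0.0246). At the second step 11 of the 16 were lower, beside 29.2% of all genes. With median-ratio size factors it was 7 of the 16, beside 2587 of 15102 genes.

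Calretinin's relatives are the EF-hand calcium-binding genes. Of 23 tested, 6 were lower and 4 higher at the first step (median -0.07; 2 higher without ROS+ replicate 5 or ROS++ replicate 2). The neuronal calcium sensor gene Ncs1 fell by 3.11 ± 0.24 and Necab3 by 2.85 ± 0.40 (limma adjusted p = 3.43e-08 and 3.02e-05), while Efhd2 rose by 3.04 ± 0.26 (8.78e-08). Of 18 CD24 ligand and neuronal adhesion genes, 4 were lower and 3 higher (1 higher without ROS+ replicate 3 or 5, or ROS++ replicate 1, 4 or 5). Over all genes 13.2% were lower and 16.4% higher, and the shares called higher in both lists were near that background. The adhesion gene Chl1 fell by 1.90 ± 0.49 and the sialic acid-binding lectin genes Siglec1 and Siglech rose by 2.03 ± 0.60 and 1.99 ± 0.67 (limma adjusted p = 0.00857, 0.0167 and 0.0315). Siglec1 and Siglech are genes of macrophages and microglia. Of the 20 genes in this list, Siglecg and Selp were not measured. L1cam, named after its value was seen, fell by 1.72 ± 0.36 (limma adjusted p = 0.00142). Binding of any of these to CD24 was not tested.

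Relatives of Adamts18, Fam84a and Zfp385b mostly did not fall at the first step. Of 19 other ADAMTS and ADAMTS-like genes, 5 were higher and 1 lower (Adamts6, -0.92 ± 0.29), with a median of 0.62. Over all genes 13.2% were lower and 16.4% higher, so most genes did not fall either, and nothing about the family is read from these counts. The count of lower genes was 0 without ROS+ replicate 2, 3 or 5 or ROS++ replicate 1 or 2, and 2 without ROS+ replicate 1 or ROS++ replicate 5. Adamts8 rose by 2.53 ± 0.39, Adamtsl5 by 2.45 ± 0.36 and Adamtsl4 by 2.12 ± 0.51 (limma adjusted p = 7.39e-05, 4.63e-05 and 0.00397). Zfp385a, the measured relative of Zfp385b, averaged 1.23 ± 0.447, 3.82 ± 1.58 and 6.98 ± 2.40 CPM, and its first-step change was 1.07 ± 0.35 (limma adjusted p = 0.0260). That call was lost in limma-voom and without ROS+ replicate 3 or ROS++ replicate 3 or 4. Fam84b, the closest relative of Fam84a, averaged 4.56 ± 1.54, 7.66 ± 2.41 and 1.60 ± 0.322 CPM, and its first-step difference of 0.65 ± 0.33 did not pass (limma adjusted p = 0.158). Of the other LRAT-domain genes measured, Pla2g16 rose by 1.81 ± 0.29 at the first step and Hrasls was not called, at 0.11 ± 0.25 (limma adjusted p = 0.000135 and 0.787).

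**Figure D4:**
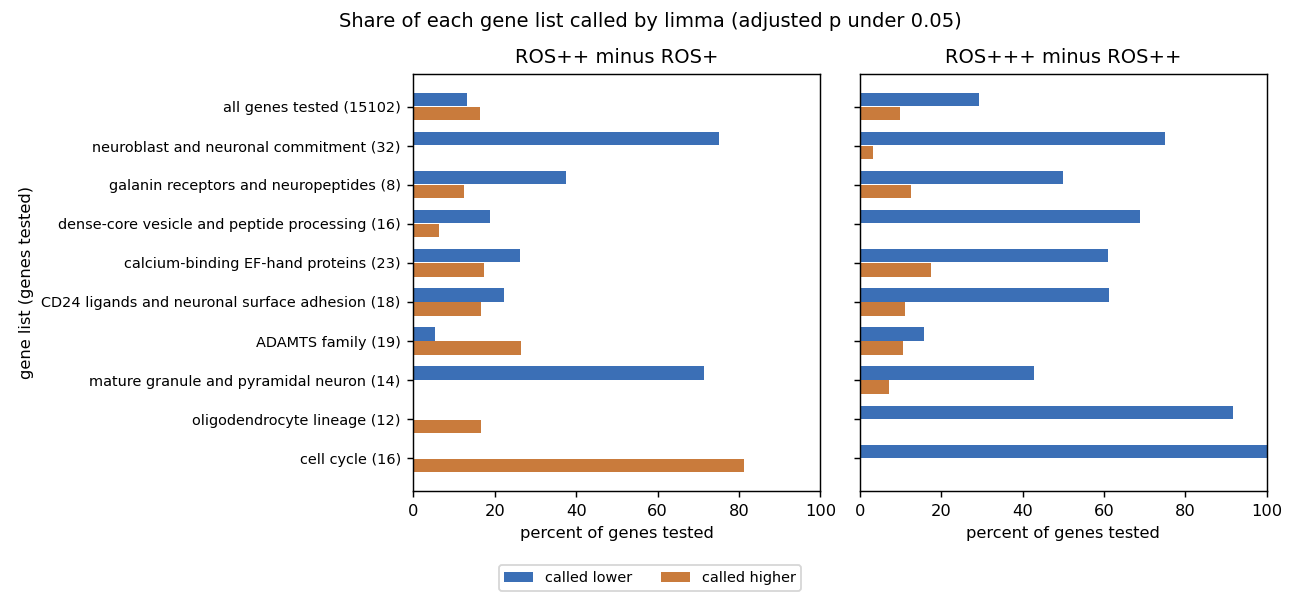
Percentage of the tested genes of each list (rows, number tested in brackets) that limma called lower or higher at an adjusted p under 0.05, for ROS++ minus ROS+ on the left and ROS+++ minus ROS++ on the right. The neuroblast list reaches 75.0% lower in both, beside 13.2 and 29.2% of all genes, and the cell cycle list turns from higher on the left to lower on the right.

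Transcripts of several other cell types rose where the members fell. At the first step, all 14 mural, all 14 microglia and macrophage, and all 16 radial glia-like stem cell and astrocyte genes were called higher (medians 5.39, 5.76 and 2.98). Of all genes 16.4% were called higher at that step, and 29.2% lower at the second. Summed mural markers reached 208 to 736, 8444 to 25037 and 55054 to 63961 CPM in the 3 classes in turn. Microglia and macrophage markers summed to 3.75 to 17.6, 995 to 2649 and 828 to 3353 CPM, and none of their genes was at or under the floor in every library of a class. Of 16 cell cycle genes, 13 were higher at the first step (8 without ROS+ replicate 2, 7 on the values as deposited), and all 16 were lower at the second. Endothelial genes had 1 of 10 higher (2 without ROS++ replicate 5). The part of these cells in the falls was not tested. In bulk libraries, fewer cells of a type and less RNA per cell cannot be told apart.

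Cell types that can carry single members were measured too. Summed interneuron markers (5 of 13 measured, among them Gad1) ranged from 382 to 601 CPM in ROS+ and 407 to 635 in ROS++, with 0 of 5 called at that step (1 higher without ROS++ replicate 5), while Calb2 and Gal fell. Cajal-Retzius markers (4 genes) summed to 4.03 to 38.3, 4.50 to 20.4 and 4.43 to 372 CPM, and mossy cell markers (2 genes, not specific to that cell) to 376 to 530, 411 to 834 and 358 to 424 CPM. Neither list had a gene called at the first step, except 1 mossy gene without ROS++ replicate 1 and 1 Cajal-Retzius gene without ROS+++ replicate 1 or 3. Ependymal markers (4 of 10 measured) summed to 11.6 to 18.7, 65.8 to 227 and 385 to 488 CPM, most of it Rarres2 at 421 ± 43.6 CPM in ROS+++. That sum rose where Cd24a fell, but the 4 genes were split. At the first step 2 were called higher (1 under some alternatives) and 1 lower. The lower one was Hydin, at 9.89 ± 2.98, 0.360 ± 0.129 and 0.680 ± 0.247 CPM in the 3 classes, a change of -2.96 ± 0.30 (limma adjusted p = 6.57e-07). Of the blood cell markers 2 were measured, with summed levels from 0.273 to 52.3 CPM over all libraries.

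**Figure D5:**
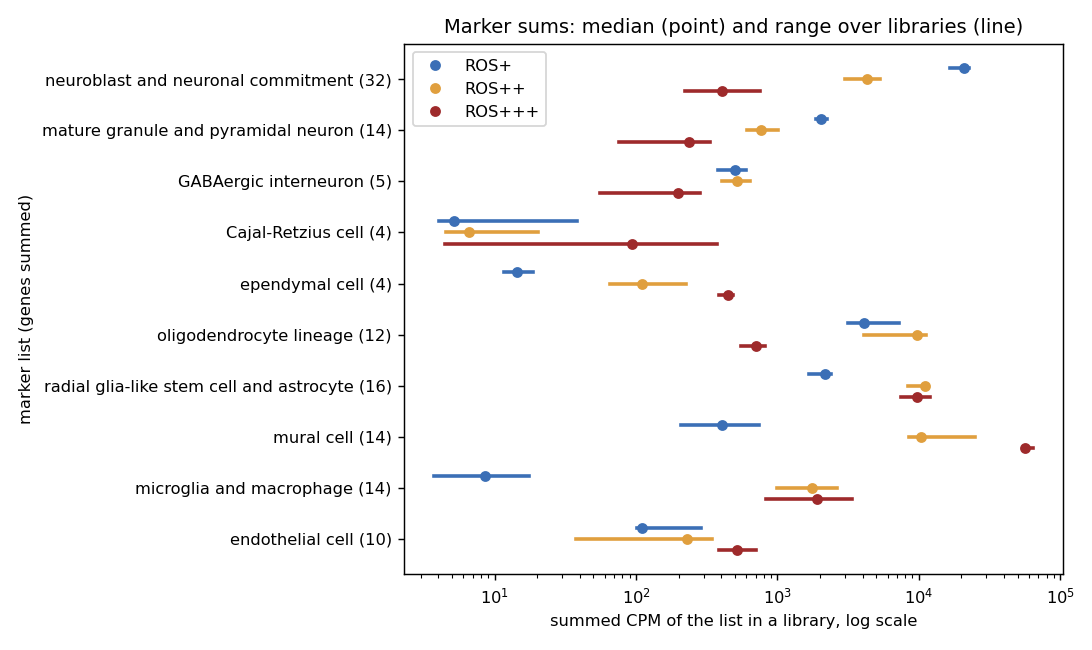
Summed CPM of each marker list (rows, genes summed in brackets) on a log axis, with the median library as a point and the range over libraries as a line for each ROS class. The neuroblast sum falls from 16669 to 22791 CPM in ROS+ to 223 to 750 in ROS+++, while the oligodendrocyte lineage sum drops only in ROS+++.

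A level kept at the first step and lost at the second, as in Vxn, was also seen in genes of other lists. Of 12 oligodendrocyte lineage genes, 0 were lower at the first step and 11 at the second (median 0.73 and -3.45), beside 13.2 and 29.2% of all genes. With median-ratio size factors, 8 were lower and 1 higher at the second step, beside 2587 lower and 2825 higher of 15102 genes. Leaving out 1 library gave 8 to 11 lower at that step. The 2 called higher at the first step were the myelin genes Mobp and Mog, and that count went to 1 without ROS+ replicate 2, 3 or 5 or ROS++ replicate 1, 3 or 4 and to 5 without ROS++ replicate 5. Summed, the list covered 3177 to 7228, 4072 to 11206 and 550 to 818 CPM in the same order of classes. Pdgfra, the growth factor receptor of oligodendrocyte precursors, averaged 1171 ± 200 CPM in ROS+, 1157 ± 406 in ROS++ and 79.5 ± 92.4 in ROS+++, and was picked after its values were seen. The first-step difference of Pdgfra was -0.07 ± 0.73 and the second -4.77 ± 0.77. Neuronal genes, named here after their values were seen, had this course too, Gap43 only in part. Elavl4, a neuronal RNA-binding protein gene, averaged 231 ± 34.9, 184 ± 37.1 and 10.1 ± 9.65 CPM, and Gap43, of growing axons, 168 ± 16.8, 105 ± 32.7 and 3.09 ± 3.97. Every ROS++ library of Gap43 (68.0 to 140 CPM) was below every ROS+ library (143 to 188 CPM), as in 10.9% of all tested genes. Its level was thus not fully kept at the first step. The adhesion gene Cntn1 averaged 929 ± 128, 1031 ± 368 and 73.5 ± 85.7 CPM. None of these 3 was called at the first step, and all 3 were lower at the second (limma adjusted p = 9.48e-06, 2.12e-07 and 0.000234). The part of either lineage in the level of Vxn was not tested.

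The genes closest to each member in their course over the 14 libraries were found by Pearson's r on the log2(CPM + 1) scale. This is a measure of likeness, carried mostly by the 3 classes, which all genes share. For Vxn they were Slitrk1 (0.997), Lhfpl3 (0.996) and Nxph1 (0.994), with Lhfpl3 at 485, 518 and 16.4 CPM in the 3 classes. For Adamts18 they were Prdm8 (0.992), Aff2 (0.986) and Golga7b (0.983), and Prdm8 (0.964) also stood second for Gal, between Hsp90ab1 (0.965) and Nrep (0.963). Prdm8 averaged 16.4, 0.587 and 0.277 CPM. For Zfp385b they were Spsb3 (0.987), Islr2 (0.984) and Neurod2 (0.980), and for Fam84a Papolb (0.958), Nhlh2 (0.953) and Hydin (0.952). For Calb2 they were Snrpn (0.991), Castor2 (0.989) and Ilf2 (0.988), and for Cd24a Nfia (0.977), G3bp2 (0.976) and Rfx3 (0.973). No gene was among the 3 closest for more than 2 members. Closeness in r did not mean an equal fall, since Nfia went from 4402 to 1599.5 and 1088 CPM. The 10 genes closest to the mean course of the 7 were Nfia, Tagln3, Tbck, Aff2, Zfas1, Rab30, Kif3c, Snhg5, Igsf3 and Mtss1, at r of 0.974 to 0.980.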

How the data were processed

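The data are RNA-seq values of 14 libraries in 3 sort classes, grouped by the sample titles. Per the labels' protocols, cDNA was primed with poly-dT and amplified over 12 cycles, with no strand or molecular identifier kept. STAR, edgeR and build mm10 are named, per the submitters' processing notes. Roles, counting tool and annotation were not given in the sources used here. Values were deposited by the authors as log2 values of counts per library total (CPM) with a prior of about 1 read, as read from the values themselves: linear values sum to 1000736 in each library, and after subtraction of the lowest value (-4.36) all are whole multiples of 1 step. Whole reads were recovered from these steps (largest deviation 1.4e-08 reads) and scaled to a total of 1000000 per library as CPM. Depth was 12704227 to 25313902 reads per library.

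Symbols, positions and exon lengths came from GENCODE M21 (GRCm38), with 15060 of 15119 identifiers matched. Genes needed 1 CPM in 4 libraries, which kept 15102 and removed 17; all 7 members passed. limma 3.58.1 (R 4.3.3, statmod 1.5.0) fitted 1 model over all 14 libraries on log2(CPM + 1), with trend and robust settings and 11 residual degrees of freedom; calls used a Benjamini-Hochberg adjusted p under 0.05. The script was tested on simulated data. Members' transcripts were searched against all GENCODE transcripts with blastn, keeping matches of at least 100 bases and 90% identity.

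The members and the 20 gene lists were chosen with earlier results of these data known. Named genes were the 7 members, in each list up to 3 called genes with the largest first-step change, measured relatives, and the genes closest to a member by Pearson's r; exceptions are marked. A planned promoter motif is not reported here. Alternatives were 2 other scalings, a pseudocount of 0.25 CPM, the values as deposited, no filter, limma-voom, leaving out each library and, added after seeing the data, sets of library numbers from the titles as a block.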

Additional observations from a re-analysis of the deposited data

Results flagged for a closer look

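In groups of 4 or 5 libraries, a library was picked out when its gap to the nearest other, as a share of the group's range, passed Dixon's 95% value; 24 groups were looked at and chance alone picks about 1 in 20. Gal in ROS++ replicate 2, at 4.40 CPM, stood apart from the other 4 ROS++ libraries, which held 0 to 0.0511 CPM. The total of ROS++ replicate 3, at 23454022 reads, was the highest of its class, and the total of ROS+++ replicate 4, at 12704227 reads, the lowest of its class. A count of 0 reads in that last library allows up to 0.236 CPM, the widest floor of the 14.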

How the results depend on the processing

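The median difference of the 7 moved with the scale: from -4.85 at the first step to -6.29 on the values as deposited and -6.34 in limma-voom, and from -5.35 between ROS+++ and ROS+ to -6.65 with a pseudocount of 0.25 CPM, -7.32 as deposited and -7.50 in limma-voom. These settings add less to values near 0. Of 441 single differences of the 7 genes under 21 alternatives, 406 moved by less than the spread between libraries and 35 by more, all 35 under those 3 settings. The largest move was that of Gal at the first step, from -5.59 to -9.61 in limma-voom. The first-step difference of Vxn ran from -0.09 to 0.23. Leaving out 1 library gave 3634 to 4626 genes called at the first step (4476 with all libraries), 8290 to 9204 between ROS+++ and ROS+ (8947) and 5053 to 6148 at the second step (5898). Calls that were higher made up 32.5% between ROS+++ and ROS+ and 25.3% between ROS+++ and ROS++ with library totals, against 50.6 and 52.2% with median-ratio size factors. No list median changed sign under either scaling. The labels name no pairs, but library numbers in the titles run in 5 sets. With these sets as a replicate block, chosen after seeing the data, 4699, 9065 and 6134 genes were called and the median difference of the 7 was -4.85, -5.50 and -0.66 in the same order of comparisons. Deviations from the class means correlated at -0.02 to 0.23 (median 0.08) in 13 pairs of the same set and at -0.15 to 0.16 (median -0.01) in 52 pairs of different sets, and 10 of 14 libraries correlated best with their own set, a hint from the data and not from the design. Depth limits the higher gates most, where Adamts18 rests on 19 reads in ROS+++ and Gal on 83 in ROS++.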
